A study of Mus musculus with 11 samples.

Results

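The comparison of 7 libraries is described here, 3 of CSF3R-first and 4 of CSF3R-only cells, out of 11 in the RNA-seq experiment. Lineage-negative (Lin-) bone marrow of C57BL/6 mice with a tamoxifen-dependent Cre recombinase at the Rosa26 locus (Rosa26-ERT2-Cre) was transduced with a pair of retroviral vectors. One vector expressed its insert from the start and marked cells with GFP, and the other, marked by a red fluorescent protein (RFP), expressed its insert only after Cre had acted. CSF3R-only cells carried constitutive CSF3R T618I and an empty inducible vector. CSF3R-first cells carried constitutive CSF3R T618I and inducible CEBPA V314VW. In CEBPA-first cells (n = 4), used here for side-by-side values, for a direct test against CSF3R-first and as part of the one fit of all samples, CEBPA V314VW was constitutive and CSF3R T618I inducible. Lin- cells positive for both markers were sorted and then cultured for 48 h without cytokines and with 4-hydroxytamoxifen in every group. CSF3R-only and CSF3R-first therefore shared the receptor mutation, Cre activation and culture, and differed in whether the activated vector held mutant CEBPA. The question is what switching on mutant CEBPA for 48 h changes in cells that already express the mutant receptor. All genes that passed a filter on low counts were compared, 15703 of the 51912 in the table.

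C/EBPα, the product of CEBPA, is a basic leucine zipper transcription factor needed for progenitors to enter the granulocyte lineage, and it acts before C/EBPε, which drives the later granule genes. V314VW changes its C-terminal part, which binds DNA and pairs with other C/EBP proteins. CSF3R is the receptor for granulocyte colony-stimulating factor, and T618I next to the membrane makes it signal through JAK and STAT proteins without its ligand. A neutrophil makes its granules in order, first the primary granules of promyelocytes (Mpo, Elane), then the secondary granules of myelocytes (Ltf, Camp) and last the tertiary granules and the receptors of mature cells (Mmp9, Cxcr2).

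Libraries held 47905747 to 61069929 counts in CSF3R-first and 49499527 to 65937530 counts in CSF3R-only. Values below are CPM, a gene's counts relative to its library's total after scaling by edgeR's TMM factor, and 3 counts, the limit that a count of 0 allows, correspond to 0.0474 to 0.0648 CPM. Limits of this kind cover counting error only. CSF3R-first A stood apart from the other CSF3R-first libraries. In a chi-square test of counts over genes, the statistic divided by its degrees of freedom was 110 against B and 82.2 against C, compared with 24.4 between B and C and 15.5 to 43 between pairs of CSF3R-only libraries. The labels do not say whether the samples came from separate animals or cultures, so p-values measure the spread between these samples. In bulk RNA, fewer cells of a type and less RNA per cell cannot be told apart. The sort was for Lin- cells, yet the mature myeloid antigen gene Itgam stood at 413 to 499 CPM in CSF3R-only and 162 to 279.8 CPM in CSF3R-first after culture. The T cell gene Cd3e had 0 counts in every sample, and the progenitor receptor gene Kit lay at 23.9 to 31.4 CPM in CSF3R-only and 23.8 to 33.2 CPM in CSF3R-first.

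The quasi-likelihood test of edgeR was used, p-values were adjusted over all tested genes (Benjamini-Hochberg), and a gene was called at an adjusted p below 0.05 with at least a 2-fold difference. Of the genes tested, 6.65% were called, 2.13% higher in CSF3R-first (334 genes) and 4.53% lower (711). With the adjusted p alone, 21.6% were higher and 21.1% lower, so the shares were close. These shares, 21.6% that rose and 21.1% that fell, are the background for each count of list members that rose or fell below. The larger number of 2-fold calls that were lower depended on the test, since edgeR's glmTreat, which tests against a log2 fold change of 1, called 120 genes higher and 81 lower. The ranges of the groups did not overlap for 42.1% of tested genes. Every CSF3R-first sample lay above every CSF3R-only sample for 20.7% of them and below for 21.4%. Among the calls the ranges did not overlap for 298 of the genes called higher and 670 of those called lower. For counts of list members that differed at least 2-fold, the background is the 2.13% called higher and 4.53% called lower. Over all tested genes the median log2 fold change was -0.0218, with 5% of genes below -1.01 and 5% above 0.725. CSF3R-first A showed the smaller drop. Its median log2 difference from CSF3R-only over the genes called lower was -1.08, against -1.53 for B and -1.31 for C, whereas over the genes called higher the values were 1.61, 1.5 and 1.6. All 711 genes called lower lay below the CSF3R-only mean in each CSF3R-first library. Without CSF3R-first A, 401 genes were called higher and 1034 lower.

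**Figure D1:**
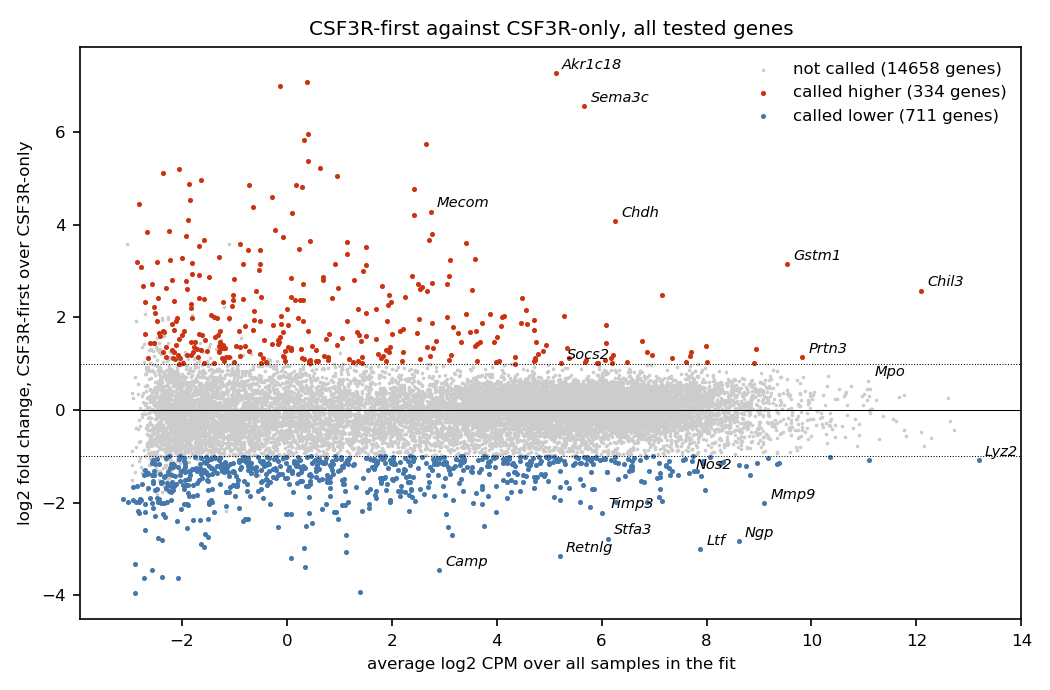
Log2 fold change of CSF3R-first over CSF3R-only (vertical axis) against average log2 CPM over all samples in the fit (horizontal axis), one point per tested gene, with red for the 334 genes called higher, blue for the 711 called lower and dotted lines at a log2 fold change of 1 and -1. Akr1c18 and Sema3c are the highest labelled points, and the secondary granule genes Camp, Ltf and Ngp are among the lowest.

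Mouse Cebpa and Csf3r, the genes matching the vector inserts, moved in opposite directions. Cebpa (chromosome 7 of GRCm38 from 35119293 to 35121928) was at 78.5, 85.7, 95.1 and 89.6 CPM in CSF3R-only A to D and 119, 132 and 140.03 CPM in CSF3R-first A to C. Every CSF3R-first sample lay above every CSF3R-only sample (log2 fold change 0.58 ± 0.07 SE, adjusted p = 1.22e-04). Csf3r was at 986, 779, 796 and 825 CPM in CSF3R-only A to D and 650.0, 427 and 471 CPM in CSF3R-first A to C, with no overlap, and was lower in CSF3R-first (log2 fold change -0.71 ± 0.14 SE, adjusted p = 0.00168). Reads of the vector inserts may be counted on these mouse genes, and how many were was not tested. CSF3R T618I was constitutive in both groups, and the CEBPA insert was present in only one of them.

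Primary granule genes mostly rose. Of the 11 measured members of the list, 7 rose and 4 fell at an adjusted p below 0.05, against 21.6% and 21.1% of all tested genes, and the median log2 fold change was 0.63. The summed level did not follow this rise. It was 20970 to 26320 CPM in CSF3R-only and 14960 to 21960 CPM in CSF3R-first, where CSF3R-first A overlapped with CSF3R-only, and Lyz2 was the most abundant member. A further member of the list was below the count filter. The serine proteases formed the core of the rise. Prtn3, proteinase 3, was at 414, 523, 436 and 441 CPM in CSF3R-only A to D and 1062, 1015 and 916 CPM in CSF3R-first A to C, so that each CSF3R-first sample held more than each CSF3R-only sample (log2 fold change 1.14 ± 0.09 SE, adjusted p = 1.88e-06). Prss57, a further serine protease of these granules, was at 39.4, 46.7, 43.9 and 40.4 CPM in CSF3R-only A to D and 125, 119 and 115 CPM in CSF3R-first A to C, tightly grouped in both conditions (log2 fold change 1.49 ± 0.07 SE, adjusted p = 2.05e-08). Cathepsin G (Ctsg) lay at 291 to 381 CPM in CSF3R-only and 543 to 656 CPM in CSF3R-first, and neutrophil elastase (Elane) at 432 to 552 CPM in CSF3R-only and 725 to 887 CPM in CSF3R-first, both without overlap. Their log2 fold changes were 0.87 and 0.64, with adjusted p-values of 3.80e-05 and 4.35e-04. Myeloperoxidase (Mpo) lay at 1382 to 1633 CPM in CSF3R-only and 2036 to 2561 CPM in CSF3R-first (log2 fold change 0.63 ± 0.09 SE, adjusted p = 3.38e-04). Serpinb1a, an inhibitor of these proteases, rose by 0.37 on the log2 scale (adjusted p = 0.00398). The largest rise in the list belonged to Gstm1, a glutathione S-transferase placed in it as a gene of early granulocytic cells. Gstm1 was at 116, 111, 97.7 and 108 CPM in CSF3R-only A to D and 1095, 882 and 882 CPM in CSF3R-first A to C (log2 fold change 3.14 ± 0.10 SE, adjusted p = 3.13e-09), and 51.0% of its transcript matches the pseudogene Gstm2-ps1, which had a mean of 0.47 CPM.

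The 4 primary granule members that fell were Lyz2, Ctsc, Cst7 and Srgn. Lyz2, lysozyme, is made at several stages and by macrophages as well, and it lay at 19854, 18095, 14162 and 16750.0 CPM in CSF3R-only A to D and 11989, 5894 and 6505 CPM in CSF3R-first A to C. CSF3R-first A was closest to CSF3R-only, and the groups did not overlap (log2 fold change -1.08 ± 0.23 SE, adjusted p = 0.00295). Cst7, cystatin F, which inhibits granule cathepsins, had a log2 fold change of -0.43 (adjusted p = 0.00946). Ctsc, the protease that activates the granule serine proteases, had a value of -0.51 (adjusted p = 0.0104), and Srgn, the proteoglycan core that packs them, -0.29 (adjusted p = 0.0267). Both of these depended on single libraries. For Ctsc the adjusted p was 0.0570 without CSF3R-first B and 0.0536 without CSF3R-first C. For Srgn it was 0.117 and 0.0549 in the same fits, and 0.0626 and 0.0718 without CSF3R-only B or C.

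Secondary granule genes went the other way. Of 16 members 1, Ptx3, had at most 1 count and was below the filter, and of the 15 measured 13 fell and 1 rose, with a median log2 fold change of -1.17. The share of all tested genes that fell was 21.1%. The promoters of a pair of the steepest fallers, Ltf and Ngp, are printed from RefSeq's annotation of GRCm38.p6. They are shown because these members moved together and both windows hold the letters TTGCNNAA, a loose form of the site that C/EBP proteins bind, on one strand or the other. Each sequence is the 250 bases that end just before the start site, on the + strand, written 5′ to 3′, at chr9:111019042-111019291 for Ltf and chr9:110419558-110419807 for Ngp. Capitals mark the matches, which begin 75 bases before the start site in Ltf and 138 and 11 bases before it in Ngp.
Ltf: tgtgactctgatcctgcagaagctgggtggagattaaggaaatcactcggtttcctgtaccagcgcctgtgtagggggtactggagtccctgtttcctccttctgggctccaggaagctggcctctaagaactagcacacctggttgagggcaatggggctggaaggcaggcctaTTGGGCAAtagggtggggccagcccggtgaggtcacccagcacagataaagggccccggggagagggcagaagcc
Ngp: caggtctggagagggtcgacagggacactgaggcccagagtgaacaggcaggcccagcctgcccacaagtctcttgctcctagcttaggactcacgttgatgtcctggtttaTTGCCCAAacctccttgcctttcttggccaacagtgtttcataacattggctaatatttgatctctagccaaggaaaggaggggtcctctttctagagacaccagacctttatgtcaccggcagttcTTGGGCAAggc
Ltf encodes lactoferrin, the iron-binding protein of secondary granules (chromosome 9 of GRCm38 from 111019271 to 111042767). It was at 778, 460.5, 429 and 659 CPM in CSF3R-only A to D and 115, 53.1 and 50.2 CPM in CSF3R-first A to C. All CSF3R-first samples were below all CSF3R-only samples, and CSF3R-first A was the highest of the 3 (log2 fold change -3.00 ± 0.33 SE, adjusted p = 4.18e-05). Ngp, neutrophilic granule protein, which lies near Ltf on the same chromosome (chromosome 9 of GRCm38 from 110419747 to 110423012), was at 1118, 805, 803 and 1060.2 CPM in CSF3R-only A to D and 215, 91.9 and 91.1 CPM in CSF3R-first A to C. CSF3R-first A was again the highest of its group and below all CSF3R-only samples (log2 fold change -2.84 ± 0.32 SE, adjusted p = 5.05e-05).

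Camp, the precursor of the antimicrobial peptide cathelicidin, had the largest fall of the list, from 20.8, 19.5, 13.7 and 21 CPM in CSF3R-only to 2.7, 1.53 and 0.98 CPM in CSF3R-first (log2 fold change -3.45 ± 0.32 SE, adjusted p = 1.16e-05). Its level was low in every sample. Ceacam10, an adhesion molecule of the carcinoembryonic antigen family, lay at 16.1 to 25.7 CPM in CSF3R-only and 2.13 to 5.62 CPM in CSF3R-first (log2 fold change -2.54, adjusted p = 5.85e-05). Pglyrp1, a peptidoglycan-binding protein, lay at 295 to 357 CPM in CSF3R-only and 91 to 155 CPM in CSF3R-first (log2 fold change -1.40, adjusted p = 3.86e-05), and Itgb2l, an integrin beta chain, at 69.5 to 104 CPM in CSF3R-only and 20.9 to 41.7 CPM in CSF3R-first (log2 fold change -1.56, adjusted p = 1.89e-04). Cd177, a neutrophil surface protein, fell by 1.17 on the log2 scale (adjusted p = 0.0021). Olfm4, carried by a subset of neutrophils, was low in all samples, at 1.77 to 6.07 CPM in CSF3R-only and 0.584 to 1.56 CPM in CSF3R-first (log2 fold change -1.99, adjusted p = 0.00413), and its ranges did not overlap. Lcn2, lipocalin 2, a binder of bacterial iron carriers, was abundant. It was at 2711, 2319.6, 2057 and 2371 CPM in CSF3R-only A to D and 1596, 878 and 1055 CPM in CSF3R-first A to C (log2 fold change -1.01 ± 0.18 SE, adjusted p = 0.00106).

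The other members fell less or not at all. Log2 fold changes were -0.92 for the secreted glycoprotein Lrg1 (adjusted p = 0.00716), -0.80 for the metalloprotease Adam8 (0.00715) and -0.70 for the chitinase-like Chil1 (0.00905). Haptoglobin (Hp) had a log2 fold change of -0.56 (adjusted p = 0.0203). The adjusted p for Hp was 0.0999 without CSF3R-first B, 0.0936 without CSF3R-first C and 0.0507 without CSF3R-only A, and the fold change was -0.86 without CSF3R-first A. Mmp8, neutrophil collagenase, was at 8274, 7718, 7634 and 7341 CPM in CSF3R-only A to D and 8641, 4751 and 6159 CPM in CSF3R-first A to C, with overlapping groups (log2 fold change -0.25 ± 0.17 SE, adjusted p = 0.257). CSF3R-first A held the highest Mmp8 level of the 7 samples, and without it the difference passed the test (log2 fold change -0.50, adjusted p = 0.00623). Chil3, the chitinase-like protein Ym1, was the exception that rose. It was at 1457, 1142, 855 and 1215 CPM in CSF3R-only A to D and 8893, 5916 and 6061 CPM in CSF3R-first A to C, several times the CSF3R-only level in each CSF3R-first sample (log2 fold change 2.58 ± 0.21 SE, adjusted p = 3.15e-06). Mmp8 and Chil3 are abundant, and the summed level of the list overlapped between the groups. It was 16590 to 20440 CPM in CSF3R-only and 13970 to 23670 CPM in CSF3R-first.

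**Figure D2:**
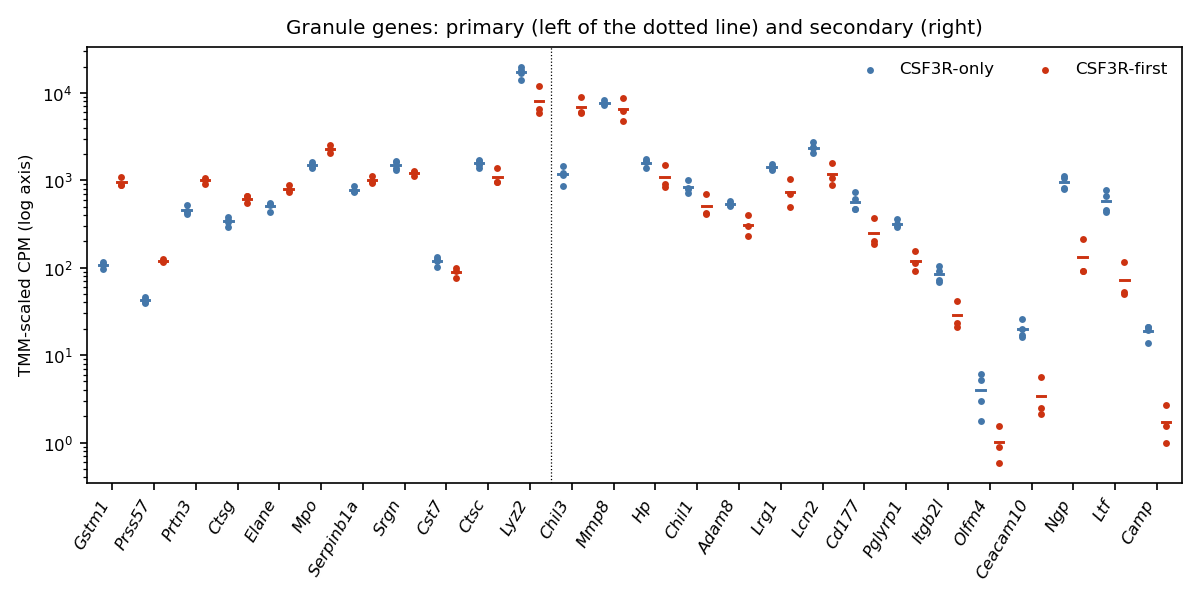
TMM-scaled CPM (log axis) of the 11 primary granule genes, left of the dotted line, and the 15 secondary granule genes, right of it, with blue points for the 4 CSF3R-only samples, red points for the 3 CSF3R-first samples and bars at group means. Gstm1 to Serpinb1a are higher in CSF3R-first, and every secondary granule gene but Chil3 has a lower mean.

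Genes of the last stages of neutrophil maturation also fell. Among 22 measured members for surface receptors and tertiary granules 17 fell and 2 rose, with a median of -0.98. Retnlg, a resistin-like protein of mature neutrophils, was at 95.4, 76.3, 96 and 95.1 CPM in CSF3R-only A to D and 14.3, 5.23 and 11 CPM in CSF3R-first A to C. The CSF3R-first samples lay far below the lowest CSF3R-only sample (log2 fold change -3.15 ± 0.26 SE, adjusted p = 3.59e-06). Mmp9, gelatinase of tertiary granules, was at 1402, 1068, 1234 and 1284 CPM in CSF3R-only A to D and 453, 203 and 268 CPM in CSF3R-first A to C (log2 fold change -2.02 ± 0.22 SE, adjusted p = 3.81e-05). Fpr1, a receptor for bacterial formyl peptides, lay at 489 to 655 CPM in CSF3R-only and 115 to 261 CPM in CSF3R-first (log2 fold change -1.74, adjusted p = 2.51e-04). Mmp25, a membrane-anchored metalloprotease, fell by 1.90 on the log2 scale at a low level (4.93 to 8.84 CPM in CSF3R-only and 0.785 to 3.04 CPM in CSF3R-first, adjusted p = 0.00122). Ly6g, the antigen by which mouse neutrophils are usually recognized, lay at 43.2 to 50.5 CPM in CSF3R-only and 11.7 to 24.8 CPM in CSF3R-first (log2 fold change -1.40, adjusted p = 4.61e-04). The integrin chains Itgam and Itgb2, which pair on phagocytes, had log2 fold changes of -1.09 and -0.81 (adjusted p = 6.40e-04 and 0.00158). The members that rose were Slpi, a protease inhibitor (log2 fold change 0.57, adjusted p = 0.00277), and Gca, a calcium-binding granule protein (log2 fold change 0.29, adjusted p = 0.0281). Gca missed the adjusted p threshold without CSF3R-only B, C or D or CSF3R-first A or B, with adjusted p-values of 0.0590, 0.0776, 0.0504, 0.100 and 0.0868.

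The stefin A genes, a cluster of cysteine protease inhibitors expanded in the mouse, fell as a block. All 7 measured members fell, each at least 2-fold, with no overlap between groups and a median of -1.40. Over all tested genes, 4.53% were called at least 2-fold lower and 21.4% lay lower without overlap. One further list entry, Csta2, was not matched in the table. Stfa3 was at 189.6, 157, 162 and 172 CPM in CSF3R-only A to D and 37.6, 15.2 and 21.7 CPM in CSF3R-first A to C (log2 fold change -2.78 ± 0.24 SE, adjusted p = 5.54e-06). Stfa2 lay at 298 to 361 CPM in CSF3R-only and 55.1 to 113 CPM in CSF3R-first (log2 fold change -1.96, adjusted p = 2.33e-05). Stfa1, the most abundant of those named, lay at 941 to 1349 CPM in CSF3R-only and 407 to 774 CPM in CSF3R-first (log2 fold change -1.04, adjusted p = 0.00133). Members of the cluster are near copies of one another. BC100530 and Stfa1 match over 99.8% and 100% of their transcripts, and Stfa2 matches Stfa2l1 over 77.9%, so the split of reads among members is uncertain and the 7 are not separate observations.

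Among 6 measured C/EBP family genes 4 fell, against 21.1% of all tested genes, and Cebpg did not pass the test. The level counted on Cebpa, which may include reads of the insert, rose. Cebpe, the factor of the secondary granule stage, was at 62.8, 52.6, 53.5 and 61.6 CPM in CSF3R-only A to D and 50.6, 31 and 38.3 CPM in CSF3R-first A to C (log2 fold change -0.53 ± 0.14 SE, adjusted p = 0.00791). Its groups did not overlap. Cebpd, induced in maturing granulocytes, was at 267, 251, 217 and 229.9 CPM in CSF3R-only A to D and 191, 129.9 and 134 CPM in CSF3R-first A to C (log2 fold change -0.67 ± 0.13 SE, adjusted p = 0.0014). Cebpb, the family member of emergency granulopoiesis, was at 824, 609.5, 566 and 708 CPM in CSF3R-only A to D and 603, 384 and 389 CPM in CSF3R-first A to C, where CSF3R-first A overlapped with CSF3R-only (log2 fold change -0.56 ± 0.17 SE, adjusted p = 0.0159). The Cebpb difference missed the threshold without CSF3R-first B (adjusted p = 0.0798) or C (0.0799), and 20.7% of the gene overlaps exons of Tmem189 on the opposite strand. Ddit3, the stress-induced member, lay at 10.2 to 13 CPM in CSF3R-only and 7.71 to 8.18 CPM in CSF3R-first (log2 fold change -0.52, adjusted p = 0.00166). Cebpg was at 48.8 to 54.2 CPM in CSF3R-only and 47.3 to 48.8 CPM in CSF3R-first and did not pass the test (log2 fold change -0.08, adjusted p = 0.252).

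Among 34 measured myeloid transcription factors, 22 fell and 2 rose, with a median of -0.59, and only Id3 and Maf fell at least 2-fold. Id3, an inhibitor of basic helix-loop-helix factors, was at 28.4, 30.2, 29.1 and 28.6 CPM in CSF3R-only A to D and 17.7, 10.3 and 14.6 CPM in CSF3R-first A to C (log2 fold change -1.03, adjusted p = 8.18e-04). Maf, a factor of macrophage differentiation, had a log2 fold change of -1.03 (adjusted p = 0.00913), and Klf2, a quiescence-associated factor, -0.93 (adjusted p = 0.00158). PU.1 (Spi1), a partner of C/EBPα in myeloid genes, lay at 610.0 to 704 CPM in CSF3R-only and 445 to 610.4 CPM in CSF3R-first (log2 fold change -0.40, adjusted p = 0.00805). The members that rose were Gfi1, a repressor needed for granulopoiesis, at 23.1 to 24.6 CPM in CSF3R-only and 28.7 to 34.6 CPM in CSF3R-first (log2 fold change 0.42, adjusted p = 6.02e-04), and Klf4, a monocyte factor, at 7.14 to 8.6 CPM in CSF3R-only and 9.1 to 11 CPM in CSF3R-first (log2 fold change 0.38, adjusted p = 0.00919). The monocyte factor Irf8 did not pass the test (log2 fold change -0.08, adjusted p = 0.521). Trib1, which promotes degradation of C/EBPα, was at 36.6, 32.5, 30.4 and 33 CPM in CSF3R-only A to D and 18.9, 11.5 and 13.7 CPM in CSF3R-first A to C, with no overlap (log2 fold change -1.17 ± 0.15 SE, adjusted p = 1.33e-04).

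Cytokine receptor genes fell more often than they rose, 13 against 2 of 22 measured, with a median of -0.38. The M-CSF receptor Csf1r lay at 939 to 1306 CPM in CSF3R-only and 444 to 848 CPM in CSF3R-first (log2 fold change -0.93, adjusted p = 0.00384), and the tumour necrosis factor receptor Tnfrsf1b fell by 0.82 on the log2 scale (adjusted p = 0.00213). Il6st, the shared signalling chain gp130 of the interleukin-6 family, rose. It was at 97.6, 99.96, 88.8 and 103 CPM in CSF3R-only A to D and 173, 169 and 158 CPM in CSF3R-first A to C (log2 fold change 0.78 ± 0.08 SE, adjusted p = 3.80e-05). The other receptor gene that rose, Flt3, is a receptor of early progenitors (1.53 to 2.82 CPM in CSF3R-only and 2.31 to 5.07 CPM in CSF3R-first, log2 fold change 0.76, adjusted p = 0.0241). Its adjusted p was 0.0597 without CSF3R-only A, 0.129 without CSF3R-first B and 0.0810 without CSF3R-first C.

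Of 27 measured JAK-STAT and feedback genes, 18 fell and 3 rose, mostly by less than 2-fold (median -0.32). The phosphatases Dusp1 and Dusp6, which switch off MAP kinases, fell most. Dusp1 was at 71.3, 52.3, 45.2 and 43.6 CPM in CSF3R-only A to D and 26.5, 13.4 and 18.2 CPM in CSF3R-first A to C (log2 fold change -1.46, adjusted p = 5.35e-04), and Dusp6 at 89.8 to 103 CPM in CSF3R-only and 32.8 to 66.4 CPM in CSF3R-first (log2 fold change -1.06, adjusted p = 9.06e-04). Stat4 fell by 0.81 on the log2 scale (adjusted p = 0.00465). Stat3, the main STAT protein of the G-CSF receptor, and its feedback inhibitor Socs3 had log2 fold changes of -0.27 and -0.58 (adjusted p = 0.0128 and 0.00222), and Stat3 missed the threshold without CSF3R-first B (0.0700) or C (0.0608). Socs2, a feedback inhibitor of STAT5 signalling, rose. It was at 4.97, 6.07, 6.97 and 4.59 CPM in CSF3R-only A to D and 7.47, 13.5 and 12.9 CPM in CSF3R-first A to C (log2 fold change 1.005 ± 0.18 SE, adjusted p = 0.00119). CSF3R-first A was the lowest of its group but above every CSF3R-only sample. The kinases Pim1 and Pim3 were the others that rose.

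Effector genes of mature phagocytes fell in the lists examined. Of 37 measured innate receptors and their adaptors, 32 fell and 2 rose, with a median of -0.85. The complement receptor C5ar1 was at 492, 431, 428 and 459 CPM in CSF3R-only A to D and 262, 126 and 153 CPM in CSF3R-first A to C (log2 fold change -1.33 ± 0.24 SE, adjusted p = 0.001). The paired inhibitory receptors Lilr4b and Lilrb4a had log2 fold changes of -1.14 and -1.12 (adjusted p = 1.24e-04 and 3.34e-04), but Lilr4b matches Lilrb4a over 81.7% of its transcript, so these are not separate measurements. The receptors that rose were Clec12a (log2 fold change 0.86, adjusted p = 3.74e-04) and Clec5a (log2 fold change 0.27, adjusted p = 0.0301), both C-type lectins. The adjusted p of Clec5a was 0.0538 and 0.0807 without CSF3R-only B or C, and 0.0929 and 0.102 without CSF3R-first A or B. Of 7 subunits of the phagocyte oxidase 5 fell, among them its catalytic chain Cybb (1283 to 1718 CPM in CSF3R-only and 708 to 1188 CPM in CSF3R-first, log2 fold change -0.79, adjusted p = 0.00473).

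Enzymes that make leukotrienes and related lipids fell in part, 7 against 1 that rose of 13 measured, with 21.1% and 21.6% over all tested genes. Alox5, which starts leukotriene synthesis, was at 450.4, 446, 488 and 449 CPM in CSF3R-only A to D and 262, 208 and 247 CPM in CSF3R-first A to C (log2 fold change -0.94 ± 0.09 SE, adjusted p = 1.94e-05). Thromboxane synthase (Tbxas1) was at 74.5, 80.4, 79.9 and 79.9 CPM in CSF3R-only A to D and 40.1, 37.3 and 41 CPM in CSF3R-first A to C, with little spread in either group (log2 fold change -0.995 ± 0.06 SE, adjusted p = 2.97e-07). Alox5ap, which presents the substrate to Alox5, fell by 0.86 on the log2 scale (adjusted p = 5.82e-04). Among 10 measured genes of arginine and nitric oxide metabolism 3 fell and 3 rose, against 21.1% and 21.6% of all tested genes, and 5 fell without CSF3R-first A. Gch1, which makes the cofactor of nitric oxide synthase, was at 23.4 to 26.2 CPM in CSF3R-only and 9.98 to 17.2 CPM in CSF3R-first (log2 fold change -0.92, adjusted p = 3.92e-04). The arginine transporter Slc7a1 rose and lay at 34.1 to 46 CPM in CSF3R-only and 58.4 to 83.8 CPM in CSF3R-first (log2 fold change 0.85, adjusted p = 2.16e-04).

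Inflammatory and interferon genes fell as well. Of 32 measured chemokine, cytokine and receptor genes 15 fell and none rose (median -0.55), and of 29 interferon-stimulated genes 21 fell and 1 rose (median -0.82). Il1b, the inflammatory cytokine interleukin-1β, was at 232, 184, 178 and 188 CPM in CSF3R-only A to D and 120.4, 55.3 and 62.9 CPM in CSF3R-first A to C (log2 fold change -1.30 ± 0.22 SE, adjusted p = 8.20e-04). Tnf lay at 41.7 to 58.5 CPM in CSF3R-only and 15.7 to 28.1 CPM in CSF3R-first (log2 fold change -1.12, adjusted p = 5.65e-04), and the neutrophil attractant Cxcl2 at 41.5 to 51.6 CPM in CSF3R-only and 12.4 to 32.6 CPM in CSF3R-first (log2 fold change -1.17, adjusted p = 0.00303). Il1a, the sister cytokine, was at 1.38, 1.36, 1.37 and 1.55 CPM in CSF3R-only A to D and 5.82, 0.765 and 0.648 CPM in CSF3R-first A to C, and its fitted direction rested on CSF3R-first A alone. The difference did not pass the test with that sample (log2 fold change 0.75, adjusted p = 0.315) and was of the opposite sign without it (log2 fold change -1.01, adjusted p = 0.00529). Among the interferon-stimulated genes, Oas2, a sensor of viral RNA, was at 42.2, 34.2, 33.5 and 32.1 CPM in CSF3R-only A to D and 18.1, 13.9 and 14.2 CPM in CSF3R-first A to C (log2 fold change -1.20 ± 0.16 SE, adjusted p = 1.26e-04). Ifit1, which binds foreign RNA ends, was low, at 4.54 to 6.99 CPM in CSF3R-only and 1.56 to 2.25 CPM in CSF3R-first (log2 fold change -1.47, adjusted p = 4.03e-04). Rsad2, an antiviral enzyme, lay at 3.88 to 4.9 CPM in CSF3R-only and 1.34 to 1.93 CPM in CSF3R-first (log2 fold change -1.47, adjusted p = 6.98e-04). Gbp3, a guanylate-binding protein, was the member that rose (log2 fold change 0.40, adjusted p = 0.0341). The adjusted p of Gbp3 was 0.0876 and 0.0944 without CSF3R-only A or D, and 0.0596 and 0.128 without CSF3R-first A or B, while 3 members of the list rose without CSF3R-only B.

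Lysosomal genes followed, with 24 of 32 measured members lower and 2 higher (median -0.55). The lower members included the lipid hydrolase Lipa (log2 fold change -0.86, adjusted p = 8.53e-04), while cathepsin G, counted above with the primary granules, was 1 of the members that rose. Without CSF3R-first B, 14 members of this list fell, and 1 rose without CSF3R-only C or D or CSF3R-first A or B. Among 20 integrin and adhesion genes 14 fell and none rose (median -0.44), and 1 rose without CSF3R-first A. Itgal, the LFA-1 alpha chain, fell by 0.88 on the log2 scale (adjusted p = 1.04e-04), and Ceacam1 by 1.01 (adjusted p = 7.61e-04). Of 27 measured BCL2-family and p53-target genes 13 fell and 2 rose, against 21.1% and 21.6% of all tested genes. The death-promoting Bbc3 lay at 26.6 to 29.2 CPM in CSF3R-only and 15.1 to 17.8 CPM in CSF3R-first (log2 fold change -0.75, adjusted p = 2.66e-05), and Bcl2l11, which also promotes death, at 99.2 to 125 CPM in CSF3R-only and 53.8 to 79.3 CPM in CSF3R-first (log2 fold change -0.77, adjusted p = 0.00193). The survival gene Bcl2l1 fell too (log2 fold change -0.68, adjusted p = 4.56e-05).

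The largest rises among the genes named here were of genes almost absent from CSF3R-only cells. Akr1c18, an enzyme that inactivates progesterone (chromosome 13 of GRCm38 from 4132615 to 4150654), was at 0.13, 0.0601, 0.222 and 0.0633 CPM in CSF3R-only A to D and 25.5, 13.1 and 15.9 CPM in CSF3R-first A to C. The CSF3R-only samples lay near the limit of 3 counts, so the fitted value (log2 fold change 7.27 ± 0.36 SE, adjusted p = 6.04e-08) depends on the prior count and only its direction and order of size can be read. Sema3c, a secreted guidance protein (chromosome 5 of GRCm38 from 17574281 to 17730268), was at 0.238, 0.0801, 0.302 and 0.396 CPM in CSF3R-only A to D and 23.6, 26.7 and 24.3 CPM in CSF3R-first A to C (log2 fold change 6.56 ± 0.23 SE, adjusted p = 3.42e-09). Mecom, which encodes the stem cell transcription factor EVI1 (chromosome 3 of GRCm38 from 29951296 to 30548008), was at 0.173, 0.12, 0.181 and 0.206 CPM in CSF3R-only A to D and 2.42, 4.49 and 3.24 CPM in CSF3R-first A to C (log2 fold change 4.28 ± 0.25 SE, adjusted p = 2.20e-07). In each of these 3 genes the lowest CSF3R-first sample was more than 10 times the highest CSF3R-only sample. Chdh, choline dehydrogenase, was at 2.53, 1.72, 1.87 and 1.85 CPM in CSF3R-only A to D and 32.3, 39.2 and 28.6 CPM in CSF3R-first A to C (log2 fold change 4.07 ± 0.14 SE, adjusted p = 3.13e-09). Gria3, a glutamate receptor subunit, lay at 23.4 to 28.7 CPM in CSF3R-only and 126 to 165 CPM in CSF3R-first (log2 fold change 2.48, adjusted p = 1.06e-08), Far2, a fatty acyl-CoA reductase, at 8.21 to 9.68 CPM in CSF3R-only and 32.3 to 40.8 CPM in CSF3R-first (log2 fold change 2.03, adjusted p = 2.76e-08), and Bace1, the β-secretase, at 15.4 to 16.2 CPM in CSF3R-only and 51.5 to 61.1 CPM in CSF3R-first (log2 fold change 1.83, adjusted p = 1.06e-08). Bace1 overlaps Rnf214 on the opposite strand over 15.4% of its exons. The same kind of overlap covers 11.4% of Far2 (Ergic2), 9.47% of Chdh (Cacna1d), 15.0% of Cebpd (Spidr), 19.7% of Cdk4 (Tspan31) and 17.4% of Ccne2 (Ints8). Hspa2, Stk26 and Gstm4 completed the 12 highest calls whose average log2 CPM was 5 or more, with log2 fold changes of 1.44, 1.37 and 1.34. That average was taken over all 11 samples, and Akr1c18 and Sema3c, low in CSF3R-only, had averages of 5.13 and 5.67 with the CEBPA-first samples included. Chdh, Far2 and Hspa2 had averages of 6.26, 5.29 and 6.08 and were also highest in CEBPA-first, at means of 184, 72.1 and 137 CPM. The choice of these genes therefore drew on their CEBPA-first levels. Stk26 is a kinase of the germinal centre kinase family, Hspa2 a heat shock protein and Gstm4 a relative of Gstm1.

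In CEBPA-first cells these genes stood at higher levels still, with exceptions. The level cut that chose some of them included the CEBPA-first samples, so their higher levels there are a description and no separate support. CEBPA-first shares its CSF3R-only reference with the comparison above, so only levels and the direct test between the 2 orders of the same mutations are given. Between the orders, 12.8% of tested genes were called. CEBPA-first means were 82.3 ± 16.6 CPM (SD, n = 4) for Akr1c18 against 18.1 ± 6.5 (n = 3) in CSF3R-first (log2 difference -2.18, adjusted p = 1.04e-05), and 121 ± 19.96 against 24.9 ± 1.59 for Sema3c (log2 difference -2.28, adjusted p = 5.46e-07). For Chdh they were 184 ± 16.3 against 33.4 ± 5.38 (log2 difference -2.46, adjusted p = 6.77e-08), and for Socs2 88.6 ± 6.86 against 11.3 ± 3.33 (log2 difference -2.97, adjusted p = 3.06e-07). Gstm1 differed less, at 1225 ± 109 against 953 ± 123 CPM (log2 difference -0.36, adjusted p = 0.00978), and so did Mpo, at 2737 ± 176 against 2301 ± 263 CPM (log2 difference -0.25, adjusted p = 0.0454). For Chil3 the difference did not pass the test, at 5603 ± 1164 against 6957 ± 1678 CPM (log2 difference 0.31, adjusted p = 0.221), nor did it for Gstm4 (log2 difference -0.13, adjusted p = 0.26) or Vegfa (log2 difference -0.06, adjusted p = 0.65). Among the fallers, Ltf stood at 11.6 ± 3.05 CPM in CEBPA-first against 72.7 ± 36.5 in CSF3R-first (log2 difference 2.65, adjusted p = 3.10e-05), and Timp3 at 1.68 ± 0.244 against 32.3 ± 10.9 (log2 difference 4.28, adjusted p = 6.77e-08). For the low-level antiviral genes Ifit1 and Rsad2 the difference between the orders did not pass the test (log2 difference -0.36, adjusted p = 0.209 and log2 difference -0.13, adjusted p = 0.698, respectively). Fcer1a, the IgE receptor chain, is given because the groups lay on opposite sides of CSF3R-only, a choice made after its values were seen. It stood at 117 ± 25.4 CPM in CSF3R-only, 63.3 ± 14.9 CPM in CSF3R-first and 259.9 ± 67 CPM in CEBPA-first (mean ± SD), and the orders differed (log2 difference -2.04, adjusted p = 2.11e-05).

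**Figure D3:**
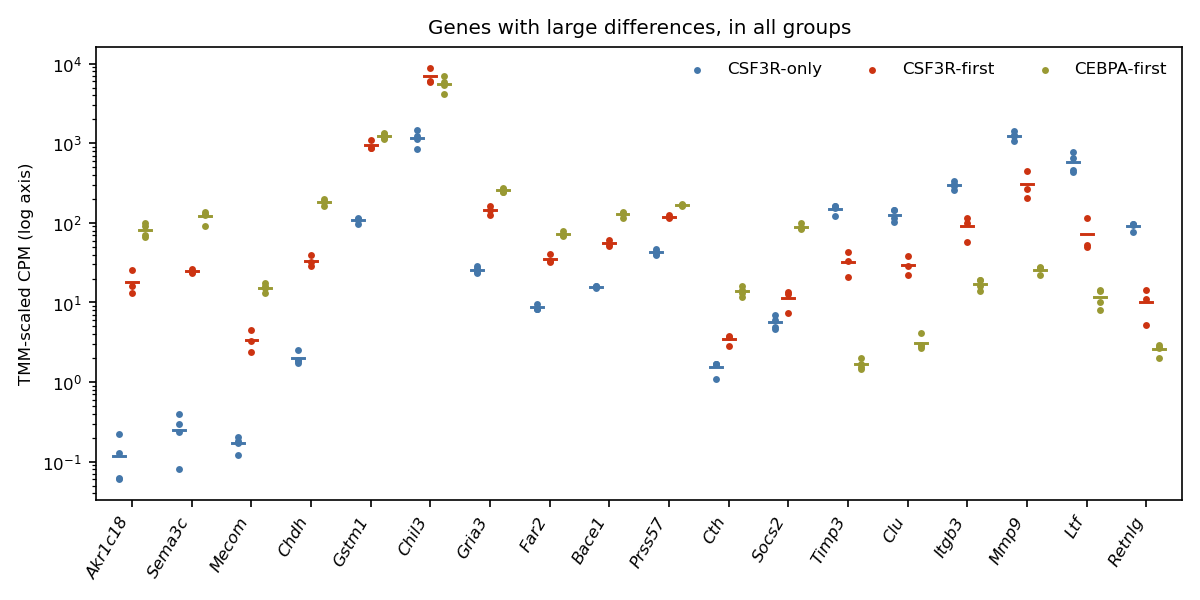
TMM-scaled CPM (log axis) of 18 genes with large differences, one point per sample, in CSF3R-only (blue, n = 4), CSF3R-first (red, n = 3) and CEBPA-first (olive, n = 4), with bars at group means. Akr1c18 and Sema3c rise from below 1 CPM, Chil3 reaches means of 6957 ± 1678 CPM in CSF3R-first and 5603 ± 1164 CPM in CEBPA-first (± SD), and Timp3 to Retnlg fall.

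Marker genes of some other blood lineages differed between the groups. Of 25 measured megakaryocyte and platelet genes, 24 fell, 18 of them at least 2-fold, and all 25 lay lower in every CSF3R-first sample than in any CSF3R-only sample (median -1.52). Over all tested genes, 21.1% fell, 4.53% were called at least 2-fold lower and 21.4% lay lower without overlap. The summed level was 4923 to 5416 CPM in CSF3R-only and 2512 to 2950 CPM in CSF3R-first. Gp6, the platelet collagen receptor, was at 5.66, 6.93, 6.29 and 8.73 CPM in CSF3R-only A to D and 1.81, 1.37 and 1.61 CPM in CSF3R-first A to C (log2 fold change -2.11 ± 0.21 SE, adjusted p = 2.04e-05). Gp1ba, the receptor for von Willebrand factor, was at 32.9, 41.5, 43 and 45.4 CPM in CSF3R-only A to D and 5.91, 11.7 and 15.2 CPM in CSF3R-first A to C (log2 fold change -1.89 ± 0.27 SE, adjusted p = 2.67e-04), and Clec1b, another platelet activation receptor, lay at 4.84 to 7.53 CPM in CSF3R-only and 1.56 to 1.73 CPM in CSF3R-first (log2 fold change -2.04, adjusted p = 3.31e-05). Ppbp, a platelet chemokine, lay at 235 to 349 CPM in CSF3R-only and 57 to 95.6 CPM in CSF3R-first (log2 fold change -1.88, adjusted p = 0.0011). Here CSF3R-first A was not the sample nearest to CSF3R-only. Its median difference over the list was -1.89, against -1.56 in B and -1.21 in C. Timp3, an inhibitor of metalloproteases, is listed with 13 measured stromal and endothelial genes, of which 4 fell and 1 rose, against 21.1% and 21.6% of all tested genes, and 2 fell without CSF3R-first B. It was at 123, 156, 161 and 163 CPM in CSF3R-only A to D and 21.2, 32.7 and 43.1 CPM in CSF3R-first A to C (log2 fold change -2.22 ± 0.19 SE, adjusted p = 6.77e-06). Clu, a secreted chaperone that platelets also carry, lay at 101 to 146 CPM in CSF3R-only and 21.8 to 37.9 CPM in CSF3R-first (log2 fold change -2.09, adjusted p = 1.06e-05). Whether the platelet-lineage signal takes part in other differences, such as those of Timp3 and Clu, was not tested.

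Eosinophil, mast cell and basophil genes fell too. The eosinophil granule protein Prg2 was at 289, 192, 242 and 293 CPM in CSF3R-only A to D and 99.9, 37.5 and 54.6 CPM in CSF3R-first A to C (log2 fold change -1.99 ± 0.28 SE, adjusted p = 2.23e-04), and its relative Prg3 lay at 19.4 to 32.2 CPM in CSF3R-only and 5.03 to 12.2 CPM in CSF3R-first (log2 fold change -1.65, adjusted p = 9.99e-04). Ear6, an eosinophil ribonuclease, was at 5.77, 4.31, 4.39 and 12.1 CPM in CSF3R-only A to D and 0.832, 0.241 and 0.253 CPM in CSF3R-first A to C, a low and uneven level (log2 fold change -3.94, adjusted p = 8.34e-04, and -4.74 without CSF3R-first A). Epx, eosinophil peroxidase, was at 4.69, 3.02, 3.61 and 12.3 CPM in CSF3R-only A to D and 2.25, 0.382 and 1.31 CPM in CSF3R-first A to C (log2 fold change -2.17, adjusted p = 0.0195), and its difference was -2.77 without CSF3R-first A. Its difference missed the threshold without CSF3R-only D (log2 fold change -1.52, adjusted p = 0.0761), CSF3R-first B (log2 fold change -1.75, adjusted p = 0.0736) or CSF3R-first C (log2 fold change -2.16, adjusted p = 0.0559). Of 9 measured eosinophil genes 5 fell, whereas the receptor Ccr3 lay at 1.04 to 1.76 CPM in CSF3R-only and 1.19 to 1.42 CPM in CSF3R-first and did not pass the test (log2 fold change -0.13, adjusted p = 0.655). Of 17 measured mast cell and basophil genes 13 fell and 1, Ms4a3, rose (median -0.72). Mcpt8, a basophil protease, was at 601, 852, 955 and 668 CPM in CSF3R-only A to D and 299, 327 and 373 CPM in CSF3R-first A to C (log2 fold change -1.21 ± 0.15 SE, adjusted p = 1.21e-04), and Cd200r3, a basophil receptor, lay at 31.6 to 45.6 CPM in CSF3R-only and 16.1 to 17.9 CPM in CSF3R-first (log2 fold change -1.10, adjusted p = 3.34e-05). Kit, which mast cells share with progenitors, did not pass the test (log2 fold change 0.05, adjusted p = 0.772).

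Erythroid genes did not separate as a group. Of 29 measured, 2 fell and 1 rose, fewer than the 21.1% and 21.6% of all tested genes, 1 fell without CSF3R-only B or C or CSF3R-first B, and 13 fell when CSF3R-first C was left out. The medians of the 3 CSF3R-first samples differed in sign, at -1.28 in A, -0.36 in B and 0.27 in C. The globin gene Hbb-bs was at 54.5, 52, 66.5 and 65.1 CPM in CSF3R-only A to D and 22.6, 43.7 and 66.2 CPM in CSF3R-first A to C (log2 fold change -0.43, adjusted p = 0.249), lowest in CSF3R-first A and within the CSF3R-only range in C, and its difference passed the test without C (log2 fold change -0.82, adjusted p = 0.0367). Blvrb, a biliverdin reductase, fell in all CSF3R-first samples (86.5 to 90.5 CPM in CSF3R-only and 39.8 to 61.2 CPM in CSF3R-first, log2 fold change -0.81, adjusted p = 3.03e-04), and the rising member was Lmo2, an adaptor of stem and erythroid factors (126 to 148 CPM in CSF3R-only and 208 to 239 CPM in CSF3R-first, log2 fold change 0.68, adjusted p = 7.06e-05).

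Monocyte and macrophage genes fell in 16 of 25 measured members, and none rose (median -0.86). CSF3R-first A again lay nearest to CSF3R-only, with a median of -0.30 against -1.29 in B and -1.19 in C. Without B 8 members fell and 1 rose, without C 8 fell and none rose, and without A 21 fell. Cx3cr1, the fractalkine receptor, was at 43.4 ± 7.33 CPM in CSF3R-only (mean ± SD, n = 4) and at 23.5, 13.1 and 13.1 CPM in CSF3R-first A to C (log2 fold change -1.39 ± 0.20 SE, adjusted p = 2.60e-04). Msr1, a scavenger receptor, lay at 96.9 to 114 CPM in CSF3R-only and 32.4 to 61.6 CPM in CSF3R-first (log2 fold change -1.33, adjusted p = 0.00114), and Mpeg1, a pore-forming protein of phagocytes, at 414 to 483 CPM in CSF3R-only and 158 to 317 CPM in CSF3R-first (log2 fold change -1.02, adjusted p = 0.00267). The monocyte genes Ly6c2 and F13a1 did not pass the test and had log2 fold changes of 0.10 and 0.28 (adjusted p = 0.587 and 0.17), and F13a1 passed it without CSF3R-first B (log2 fold change 0.44, adjusted p = 0.0368). Of 16 measured MHC class II and dendritic cell genes 9 fell and 1 rose (median -0.50), with 3 falling without CSF3R-first B and 4 without CSF3R-first C, and none rising in either fit or without CSF3R-only A. The invariant chain Cd74 lay at 229 to 298 CPM in CSF3R-only and 112 to 203 CPM in CSF3R-first (log2 fold change -0.83, adjusted p = 0.00646). Most lymphoid genes were at the floor, 14 of 25 below the count filter. Of the 11 measured 3 fell, against 21.1% of all tested genes, and Dntt, terminal transferase of early lymphoid cells, rose from at most 0.0605 CPM in CSF3R-only, with no count in D, to 0.244, 0.865 and 0.237 CPM in CSF3R-first. With so few counts its fitted value (log2 fold change 3.62, adjusted p = 0.00127) is no measure of size, and it was 2.76 without CSF3R-first B. The part that shifts in these cell types play in the granule and receptor differences was not tested.

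**Figure D4:**
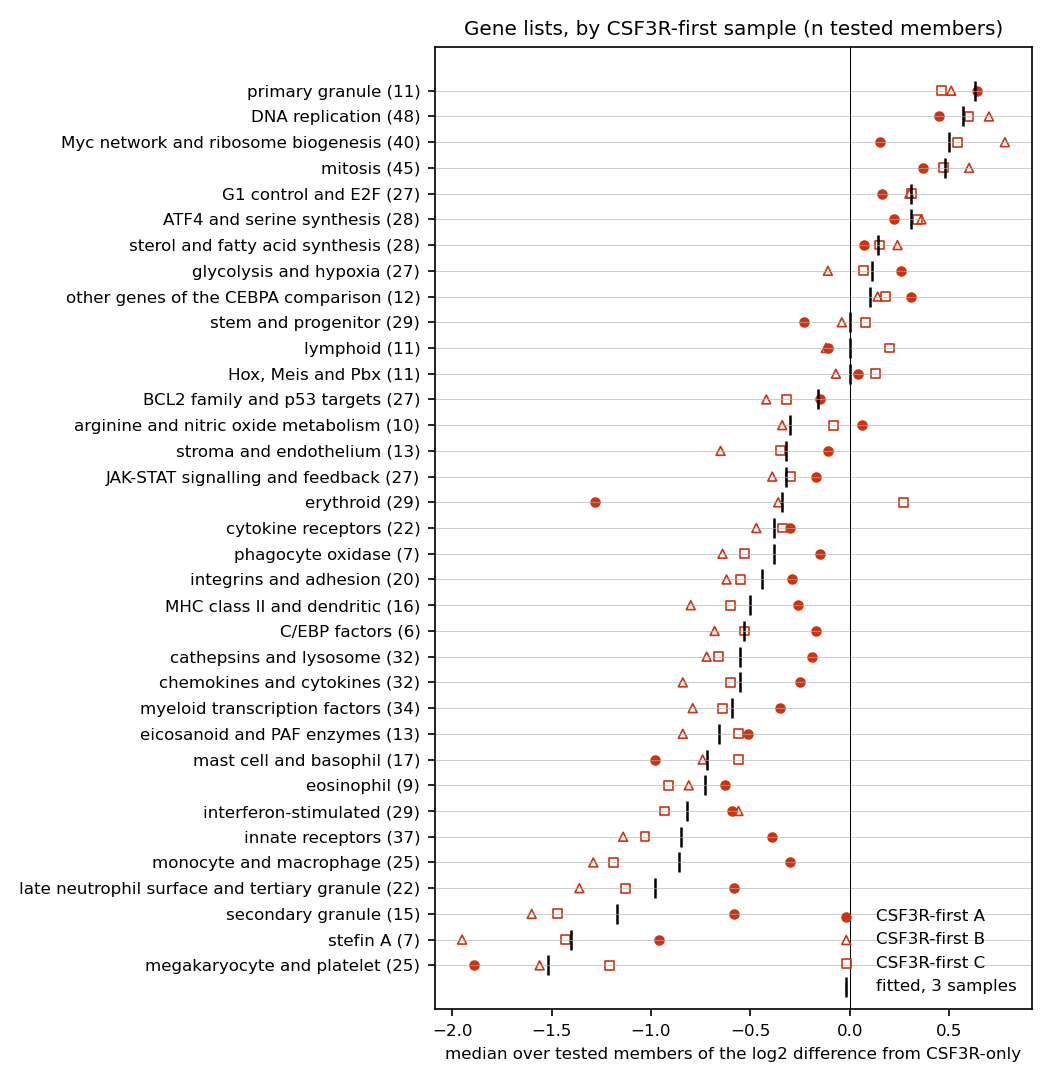
Median over the tested members of each gene list of the log2 difference of CSF3R-first A (filled circle), B (triangle) and C (square) from the CSF3R-only mean, with a black bar for the fit of the 3 samples together and the number of tested members in brackets. The secondary granule, innate receptor and macrophage lists lie left of 0 with A nearest to it, the platelet list lies left of 0 with A farthest from it, and the erythroid list spans 0.

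Stem and progenitor genes did not move together. Of 29 measured, 6 rose and 9 fell, against 21.6% and 21.1% of all tested genes, with a median of 0.00, and 3 rose without CSF3R-first B, without CSF3R-first C or without CSF3R-only A. Mecom, described above, was the member that rose at least 2-fold. Myb, a factor of proliferating progenitors, rose less (log2 fold change 0.79, adjusted p = 3.78e-04). Slamf1, a stem cell surface marker, was at 8.12, 10.5, 11.3 and 11 CPM in CSF3R-only A to D and 2.07, 4.69 and 4.41 CPM in CSF3R-first A to C (log2 fold change -1.45, adjusted p = 5.53e-04), and Esam, shared by stem cells, platelets and endothelium, lay at 6.74 to 10.1 CPM in CSF3R-only and 1.54 to 4.16 CPM in CSF3R-first (log2 fold change -1.52, adjusted p = 8.59e-04). Cd34 and Ly6a (Sca-1), surface markers of mouse progenitors, had log2 fold changes of -1.01 and -0.95 (adjusted p = 0.00118 and 0.00146). Of the Hox, Meis and Pbx genes, 12 of 23 were below the filter and 11 were measured. Meis1, a cofactor of Hox proteins, fell (log2 fold change -0.57, adjusted p = 0.00801). Hoxa9, a homeobox gene of progenitors, rose (log2 fold change 0.48, adjusted p = 0.0343), a result that single libraries decided. Its adjusted p was 0.125 without CSF3R-first B, 0.142 without C and 0.0888, 0.0567 and 0.0756 without CSF3R-only A, B or D.

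Genes of proliferation rose by small, even steps. Of 48 measured DNA replication genes 47 rose and none fell, against 21.6% of all tested genes that rose. In 46 of the 48, every CSF3R-first sample lay above every CSF3R-only sample, against 20.7% of all tested genes. The median was 0.57 and no member reached 2-fold. Medians by CSF3R-first sample were 0.45, 0.70 and 0.60. The promoter of Mcm5, a subunit of the replicative helicase, is printed as an example with the letters TTTGGCGC, a form of the site of E2F factors, here on the opposite strand and in capitals. It is the 250 bases before the start site on the + strand at chr8:75109259-75109508 (RefSeq, GRCm38.p6), and the match begins 149 bases before the start.
Mcm5: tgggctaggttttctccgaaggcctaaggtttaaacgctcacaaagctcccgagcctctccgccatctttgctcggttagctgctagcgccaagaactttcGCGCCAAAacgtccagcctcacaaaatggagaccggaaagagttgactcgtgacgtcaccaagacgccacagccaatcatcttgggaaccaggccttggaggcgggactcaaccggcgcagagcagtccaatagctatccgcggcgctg
Mcm5 was at 208, 263, 244 and 234 CPM in CSF3R-only A to D and 341, 396 and 366 CPM in CSF3R-first A to C (log2 fold change 0.63 ± 0.09 SE, adjusted p = 1.87e-04). Cdc45 and Cdc6, which load and fire the helicase, rose alike without overlap. Cdc45 was at 56.1, 70.8, 63.6 and 61.8 CPM in CSF3R-only A to D and 112, 121 and 104 CPM in CSF3R-first A to C (log2 fold change 0.83, adjusted p = 1.57e-05). Cdc6 was at 45.8, 58.9, 53 and 49.3 CPM in CSF3R-only A to D and 88.3, 97 and 89.3 CPM in CSF3R-first A to C (log2 fold change 0.82, adjusted p = 2.51e-05). Ung, a DNA repair glycosylase induced in S phase, had the highest value of the list at a low level (2.59 to 3.81 CPM in CSF3R-only and 5.13 to 7.25 CPM in CSF3R-first, log2 fold change 0.98, adjusted p = 3.92e-04).

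Mitotic genes rose in 43 of 45 measured members (median 0.48), Pttg1 and Cdc25b being the pair that fell. The adjusted p without CSF3R-first B was 0.0784 for Pttg1 and 0.0679 for Cdc25b, and without C it was 0.0615 for Pttg1. Ect2, which positions the cleavage furrow, was at 99, 103, 103 and 106 CPM in CSF3R-only A to D and 163, 184 and 167 CPM in CSF3R-first A to C (log2 fold change 0.74 ± 0.08 SE, adjusted p = 3.32e-05), and Anln, an actin ring protein, lay at 64 to 68.1 CPM in CSF3R-only and 99.6 to 118 CPM in CSF3R-first (log2 fold change 0.69, adjusted p = 3.31e-05). Among 27 genes of G1 control, 14 rose and 4 fell, against 21.6% and 21.1% of all tested genes. The largest change was the fall of Cdkn2b, an inhibitor of the D-type cyclin kinases, named after its values were seen. It was at 0.842, 0.841, 0.706 and 0.681 CPM in CSF3R-only A to D and 0.304, 0.201 and 0.174 CPM in CSF3R-first A to C, low but without overlap (log2 fold change -1.76 ± 0.32 SE, adjusted p = 0.00109). Cyclins E1 and E2 rose in parallel. Ccne1 was at 35.5, 47.6, 40.7 and 39.1 CPM in CSF3R-only A to D and 73.7, 76.5 and 73.2 CPM in CSF3R-first A to C (log2 fold change 0.87 ± 0.08 SE, adjusted p = 1.58e-05), and Ccne2 at 52.7 to 62 CPM in CSF3R-only and 94.9 to 106 CPM in CSF3R-first (log2 fold change 0.86, adjusted p = 1.67e-05). Cdk4 and Cdk6, the kinases of the preceding D-type cyclin step, had log2 fold changes of 0.58 and 0.83 (adjusted p = 3.20e-04 and 7.63e-04). E2f2 did not pass the test (log2 fold change -0.11, adjusted p = 0.269). The number of genes in this list that fell was 2 without CSF3R-only D, CSF3R-first B or CSF3R-first C.

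Myc and genes for ribosome assembly rose together. Of 40 measured 30 rose and 3 fell (median 0.50), with 1 falling without CSF3R-only D or CSF3R-first B and 20 rising without CSF3R-first B. Myc was at 119.9, 174, 182 and 155 CPM in CSF3R-only A to D and 232, 318 and 298 CPM in CSF3R-first A to C (log2 fold change 0.84 ± 0.13 SE, adjusted p = 4.44e-04). Nucleolin (Ncl), an abundant nucleolar protein, was at 608, 805, 796 and 708 CPM in CSF3R-only A to D and 926, 1460.5 and 1246 CPM in CSF3R-first A to C (log2 fold change 0.73 ± 0.14 SE, adjusted p = 0.00157), and Nop56, which guides ribosomal RNA modification, lay at 110.3 to 155 CPM in CSF3R-only and 183 to 265 CPM in CSF3R-first (log2 fold change 0.74, adjusted p = 7.86e-04). CSF3R-first A moved least in this list, with a median of 0.15 against 0.78 in B and 0.54 in C. The Myc antagonist Mxd4 fell (log2 fold change -0.71, adjusted p = 8.24e-04).

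Among 28 ATF4 and serine pathway genes 16 rose and 6 fell, against 21.6% and 21.1% of all tested genes, and 3 fell without CSF3R-only A, CSF3R-first B or CSF3R-first C. Phgdh, the first enzyme of serine synthesis, was at 115, 156, 141 and 136 CPM in CSF3R-only A to D and 227, 301 and 244 CPM in CSF3R-first A to C (log2 fold change 0.91 ± 0.11 SE, adjusted p = 7.89e-05). Cth, which makes cysteine, and Aldh1l2, a mitochondrial folate enzyme, rose from low levels, to 2.84 to 3.78 and 1.34 to 2.77 CPM (log2 fold change 1.16, adjusted p = 3.26e-04 and log2 fold change 1.30, adjusted p = 0.00286). Aldh1l2 (mean 1.5 CPM) overlaps D10Wsu102e (27.8 CPM) on the opposite strand over 14.1% of its exons, so its reads may be shared. Slc7a11, the cystine importer, fell instead. It was at 213, 128, 157 and 198 CPM in CSF3R-only A to D and 91.2, 73.9 and 56.9 CPM in CSF3R-first A to C (log2 fold change -1.23 ± 0.18 SE, adjusted p = 3.00e-04). Of 28 sterol and fatty acid genes 8 rose and 2 fell, against 21.6% and 21.1% of all tested genes. None fell without CSF3R-first B or C, 1 fell without CSF3R-only A, B or D, and 12 rose without CSF3R-first A. Fdps, which makes farnesyl diphosphate, rose alone by more than 2-fold. It was at 18.7, 17.7, 17.4 and 18.4 CPM in CSF3R-only A to D and 45.5, 41.9 and 37.3 CPM in CSF3R-first A to C (log2 fold change 1.201 ± 0.10 SE, adjusted p = 5.22e-06). Of 27 glycolysis and hypoxia genes 4 rose and 6 fell, against 21.6% and 21.1% of all tested genes, and the counts changed to 2 rising without CSF3R-only A, CSF3R-only D or CSF3R-first A and 7 rising without CSF3R-first B. The glucose transporter Slc2a3 fell (232 to 277 CPM in CSF3R-only and 94.9 to 143 CPM in CSF3R-first, log2 fold change -1.11, adjusted p = 8.16e-04), and Vegfa, an angiogenic factor, rose (45 to 49.2 CPM in CSF3R-only and 69.6 to 87.5 CPM in CSF3R-first, log2 fold change 0.79, adjusted p = 9.97e-05).

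**Figure D5:**
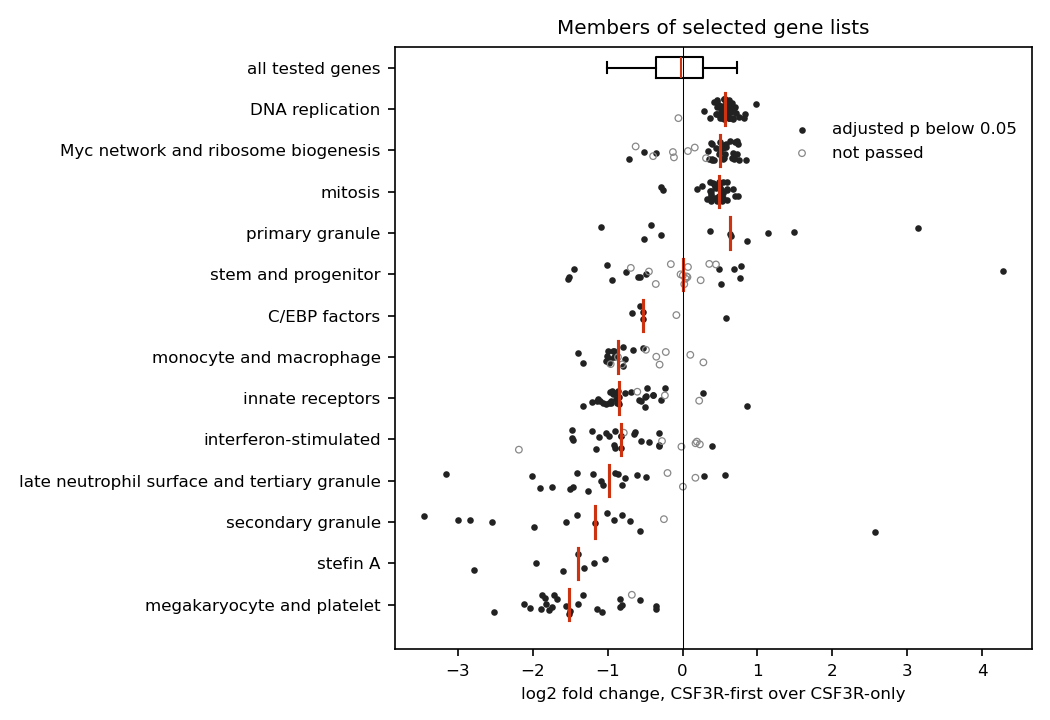
Log2 fold change of CSF3R-first over CSF3R-only for each tested member of 13 gene lists (filled points, adjusted p below 0.05; open points, not passed), with red bars at list medians and a box for all tested genes whose whiskers span the 5th to 95th percentile. The 48 DNA replication genes form a narrow band with a median of 0.57, and the 25 platelet genes lie wholly below 0.

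Promoter windows of 300 bases (250 before and 50 after the start) were available in RefSeq's GRCm38.p6 table for 10936 of the tested genes, 13899 windows in all, and were searched on both strands. TTGCNNAA was found in 8.88% of all windows, in 10.2% of 284 windows of genes called higher and in 12.5% of 633 windows of genes called lower. The full palindrome TTGCGCAA, whose matches are also matches of TTGCNNAA, was found in 0.281%, 0.352% and 0% of the same sets. TTCNNNGAA, the STAT palindrome, was found in 6.94%, 9.86% and 6.64%. Among gene lists, 5 of 15 windows of secondary granule genes (33.3%) and 1 of 11 windows of primary granule genes (9.09%) held TTGCNNAA. TTTGGCGC was found in 0.907% of all windows, 1.06% of those of genes called higher and 0.158% of those of genes called lower, and in 7 of 49 windows of DNA replication genes (14.3%). These shares describe letters in fixed windows and no site or binding was measured.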

How the data were processed

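RNA from the 11 samples was sequenced by the authors as 100-base single reads from libraries of a low-input whole-RNA kit. Per the labels and methods, reads were trimmed (Trimmomatic), aligned to mm10 (STAR) and analysed with DESeq2 by the authors, and the deposited values are raw counts per gene, not normalized. The counter, annotation and strand setting are not given in the sources used here. Of 51912 genes, 23409 had no count, and 279 identifiers without a symbol held up to 0.0279% of the counts of any sample. Counts were analysed with R 4.3.3 and edgeR 4.0.16 in one fit of all 3 groups (TMM, filterByExpr, quasi-likelihood test, Benjamini-Hochberg). CPM values are TMM-scaled, and log2 differences of single samples used a prior count of 2. Each standard error (SE) was derived from the fold change and the F value of its test. The members and the 35 gene lists (745 distinct genes tested) were chosen with earlier results of these data known, and no list was tested as a set. Named genes were Cebpa and Csf3r, the 12 highest and 12 lowest calls whose ranges did not overlap and whose average log2 CPM was 5 or more (predicted genes left out), up to 4 members per list by size of change among those past the adjusted p and an average log2 CPM of 1 or more, genes named in the study, and all granule and C/EBP members, 170 in all. Other genes are named where a sentence on a list needs them, and some results are not reported here. Shared sequence was searched with BLAST+ 2.17.0 (at least 95% identity over 200 bases) and exon overlap with bedtools 2.31.1. Gene positions and names came from a GRCm38 annotation, which is the assembly called mm10. Counts were also simulated for 15349 genes and judged by an adjusted p below 0.05 alone, without the 2-fold limit. Of 100 genes changed by a log2 value of 1, 95% passed in the right direction, and of 100 changed by 2, 100% did. Among the unchanged genes 16 passed. Simulated samples of a group shared the same mean, so none was set apart as CSF3R-first A was. Alternatives were DESeq2 1.42.0, RLE and upper quartile scaling, no filter or a stricter one, a fit of the 7 compared samples alone, a replicate block, other thresholds and each sample left out. Figures used matplotlib 3.10.9.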

Additional observations from a re-analysis of the deposited data

Results flagged for a closer look

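In the CSF3R-only group of 4 samples, 11 of the 170 genes examined had 1 sample set apart from the others by Dixon's criterion, which marks about 1 group in 20 by chance. The highest sample stood apart for Far2 (C, 9.68 CPM, the others 8.21 to 8.39), Maf (A, 50.8 CPM), Klf2 (A, 284 CPM, the others 239 to 242), Alox5 (C, 488 CPM), Ciita (B, 4.47 CPM), Pdgfrb (C, 6.43 CPM), Ccne2 (B, 62.0 CPM) and Meis1 (C, 20.9 CPM). The lowest sample stood apart for Retnlg (B, 76.3 CPM, the others 95.1 to 96.0), Tbxas1 (A, 74.5 CPM) and Cth (A, 1.10 CPM). CSF3R-only A accounted for 4 of the 11, C for 4 and B for 3. Groups of 3, as in CSF3R-first, were not examined in this way.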

How the results depend on the processing

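The number of genes called (1045, with 334 higher and 711 lower) stayed within 1.5 times of itself with DESeq2 (1026, of which 980 were shared), RLE size factors (1042), upper quartile normalization (1039), no low-count filter (1075, 411 higher and 664 lower) and only the 7 compared samples (922). It moved with at least 10 counts in every sample (566 called, 149 higher and 417 lower), where 13025 genes were tested. That filter also drops genes nearly absent from a single group, and its part in the change was not tested. It moved with the adjusted p alone (6703, 3385 higher and 3318 lower) and with glmTreat against a log2 fold change of 1 (201, 120 higher and 81 lower, so that more were higher than lower). Leaving out each of the 7 samples gave 819 to 1435 genes called, 298 to 401 higher and 498 to 1034 lower, lowest without CSF3R-first B and highest without CSF3R-first A for the total and the genes lower, and 2186 to 3759 genes lower by the adjusted p alone; the cause was not tested. With samples of 1 letter as a replicate block the counts were 1218, 402 and 816. For single genes in the rest of this section, a call stands for an adjusted p below 0.05 alone, without the 2-fold limit. The letters were not taken as pairs, since the labels do not say that they pair samples. Deviations of same-lettered CSF3R-first and CSF3R-only samples correlated at 0.314, 0.0869 and 0.123, and CSF3R-only C correlated better with CSF3R-first B (0.173). With CEBPA-first included, same-lettered samples of different groups correlated at -0.107 to 0.362, mostly positive. Samples of different letters correlated at -0.341 to 0.384, mostly negative. Whether the letters pair samples was not tested. The block changed no call of the 170 genes of the naming rule, but among the other list members 3 lost their call and 38 gained one. Among the same 170 genes, DESeq2 lost the call of Epx, absence of a filter those of Urod, Vim and Srgn, and the fit of 7 samples those of Cyba, Urod, Vim, Hoxa9 and Srgn. Among the other list members 7, 23 and 34 calls were lost and 8, 22 and 5 gained in these 3 fits. Without CSF3R-first B, and likewise without CSF3R-first C, 14 of the 170 genes of the naming rule lost their call, whereas without CSF3R-first A none of those did and Mmp8 gained one. Among the other list members, which include genes named in the text such as Gbp3 and Clec5a, 14 lost their call without CSF3R-first A and 52 gained one, and 95 lost it without B and 74 without C. Among the tested list members and these alternatives, only Il1a changed direction with a call in either fit, to -1.01 without CSF3R-first A, against up to 1.22 with another sample left out. At this depth, a gene at 0.0474 to 0.0648 CPM rests on 3 counts, and changes of genes near it have no reliable size.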
